A study of Mus musculus with 2 samples.

Results

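The regions described here are the isolated SAHA-high regions: 595 autosomal stretches of chromatin that held more histone H4 tags after treatment with SAHA than with its solvent and that had no other such region within 100 kb on either side. They were chosen from the authors' list of 61400 SAHA-high regions by position alone. A member lay on an autosome, and the gaps to the previous and to the next listed region of the chromosome were both over 100 kb. The first and last region of each of the 19 autosomes, 38 in all, were left out. The members made up 0.978% of the 60824 autosomal regions. The rule used the positions of called regions, and all columns of the list come from the same comparison of SAHA with DMSO, so the values below are descriptions and carry no test.

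The study used chromatin immunoprecipitation with sequencing (ChIP-seq) on MC3T3 sc4 cells, an osteoblast line from mouse calvaria, grown in osteogenic medium with ascorbic acid and beta glycerol phosphate. On day 4, SAHA (suberoylanilide hydroxamic acid) at 20 µM was added for 2 hours to the cells of one library, and the cells of the other received DMSO, the solvent, for the same time. Drug or solvent stayed on the cells through a collagenase digest of 40 min before crosslinking. The antibody is labelled histone H4, and the series describes a map of H4 acetylation. Each condition had 1 library, so the difference between the conditions has no replicate check, and all cells are of 1 line.

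Acetyl groups on the tail of histone H4 neutralise the charge of its lysines and are known to mark active promoters and enhancers. Histone deacetylases remove these groups. SAHA, also called vorinostat, binds the zinc ion in the active site of the zinc-dependent enzymes and blocks it. In osteoblasts, histone deacetylases are known partners of bone transcription factors such as Runx2. Long stretches of mammalian chromosomes hold few genes and little acetylated chromatin, and an isolated region is by its choice the lone called region in at least 200 kb of sequence.

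The SAHA library held 123676661 tags and the DMSO library 76214516 after the authors' limit on duplicates, with a redundant rate of 0.03 and 0.34. The difference in redundancy runs with the treatment, from which it cannot be told apart. A tag is 1 aligned read of 50 bp. The genome average at SAHA depth was 66.1 tags per kb, and the caller scaled DMSO counts up by a factor of 1.62 to that depth. Stretches where few reads can map were not analysed here, and their part in the gaps was not tested.

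Isolated regions were few and small, yet the stretches beside them with no listed region were long. Such a gap lacks only regions called higher in SAHA than in DMSO, and the H4 signal within it was not analysed. Together they covered 0.812 Mb, or 0.636% of the length of all autosomal regions. They held 148352 SAHA tags, 0.120% of the kept SAHA tags (95% Wilson interval 0.119 to 0.121%, counting error only). The gaps on their flanks added up to 668.9 Mb, 28.1% of the span between the first and last listed regions of the autosomes. The list had 3000 autosomal gaps over 100 kb. Of these, 124 had an isolated region at both ends, 942 at 1 end, and 1934 at neither.

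The smaller of the gaps beside a member had a median of 156.7 kb, and the larger a median of 446.9 kb. Both gaps were over 200 kb in 207 members, over 500 kb in 58 and over 1 Mb in 26. In 161 members at least 1 of the gaps was over 1 Mb. The largest, 12.9 Mb, followed a member at chromosome 14, 88795758 to 88796678 (build mm9, as are all positions here), which is named after its values were seen.

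Isolated regions were not confined to parts of the genome with few listed regions. Counted within 1 Mb of the summit (the point of highest SAHA signal), a member had a median of 38 other listed regions (quartiles 16 and 68). The other 60229 autosomal regions had a median of 92 (quartiles 62 and 124). At most 5 others were found near 78 members (13.1%) and over 60 near 171 members (28.7%). The fewer neighbours follow in part from the rule, which empties at least 100 kb on each side. Members in the emptiest surroundings, with at most 5 others within 1 Mb, were somewhat shorter (median 831.5 bp) than those with over 60 (959 bp), and had 135.6 against 146.6 SAHA tags per kb. Classes between these, with up to 15, 30 and 60 others, had median lengths of 1015.5, 959.5 and 1028.5 bp. Their densities were 144.3, 144.8 and 145.4 tags per kb. Only the emptiest class stood apart, and length showed no steady trend.

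Of the 1190 neighbours across the gaps, 56.6% stood alone when regions were joined over gaps of up to 10 kb, and 0.420% stood in a group of 20 or more. Of the other autosomal regions, 13.2% stood alone and 10.1% stood in such a group. The rule shapes the shares of the neighbours. A neighbour always borders on a gap over 100 kb and may itself be a member, which always stands alone. In 382 cases a member was the only one in its row, while 124 members came as pairs of successive members, 57 in rows of 3 and 32 in rows of 4.

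The widest row of 4, chosen after its values were seen, lay on chromosome 4 from 22404450 to 31346032. Over 8.94 Mb the list held only these 4 regions, with 3931 bp and 554 SAHA tags in all. Their densities were alike, from 124.7 to 152.1 tags per kb, and their folds ran from 2.82 to 4.61. The most compact row of 4, also chosen after its values were seen, lay on chromosome 10 from 15328737 to 15926089 and spanned 0.597 Mb. Its 4 regions had folds of 3.09 to 3.80 and a DMSO level of 1.20 to 1.86 times the genome average.

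Every autosome had isolated regions, from 12 on chromosome 19 to 57 on chromosome 1. Per 100 Mb of span there were 25.0 over all autosomes. Chromosome 10 had the most, 37.5 per 100 Mb (47 members, 95% Poisson interval of the count 34.5 to 62.5). Chromosomes 2 and 1 followed with 30.8 and 29.7. Chromosome 14 had the fewest, 17.3 per 100 Mb (20 members, interval 12.2 to 30.9), next to 17.4 on chromosome 7 and 18.0 on chromosome 15. The intervals of these neighbours in the order overlap. Those of chromosomes 10 and 14 do not, but these were picked as the extremes of 19, and the intervals cover counting error only.

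A chromosome rich in listed regions was not always rich in isolated ones. Chromosome 10 was high in both, with 29.4 listed regions per Mb against 25.6 on average, and its members were 1.27% of its list. Chromosome 11 had 31.9 listed regions per Mb but 22.8 isolated ones per 100 Mb, 0.713% of its list. It had 27 members, with a Poisson interval of 17.8 to 39.3. Chromosome 18 had the most listed regions per Mb, 32.9, and 27.3 isolated ones per 100 Mb, 0.829% of its list. On chromosome 6, which had the lowest density of listed regions (19.8 per Mb), the members made up 0.969% of the list, close to the 0.978% of all autosomes.

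Isolated regions lay all along the chromosomes. When the span of each autosome was cut into 10 equal parts, the parts held 49 to 77 members each (8.24 to 12.9%), and 8.08 to 12.6% of the other regions. The part with the lowest coordinates, the one nearest to the centromere of mouse chromosomes, held 9.41% of the members and 8.47% of the other regions. The part with the highest coordinates held 9.58% of the members and 12.6% of the others. Members were 1.09% of the listed regions in the former and 0.744% in the latter. The share of members relative to that of the others was 1.11 in the former and 0.758 in the latter. Within 10 Mb of the outermost listed region it was 0.958 at the low end and 0.712 at the high end. The small excess at the low end thus did not hold under this other limit. The median length of members stayed between 809 and 1182 bp in all 10 parts, with no steady trend.

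**Figure D1:**
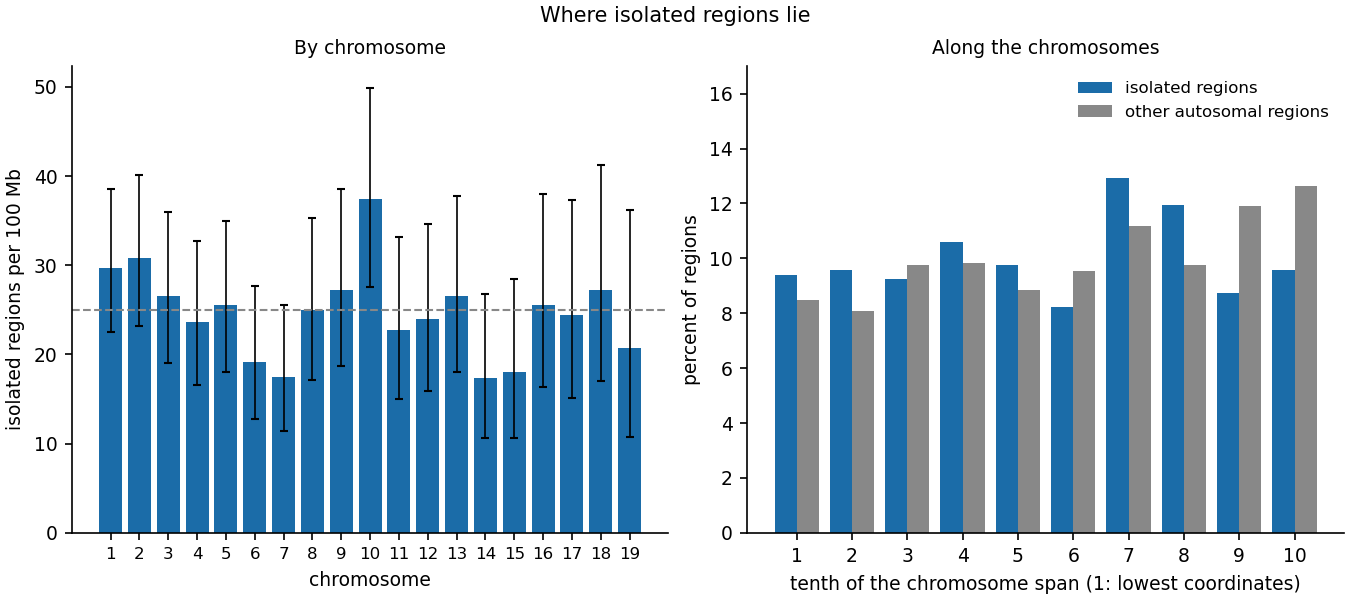
Isolated regions per 100 Mb of span on each autosome (left; bars are counts over span, error bars 95% Poisson intervals from counting alone, dashed line the 25.0 of all autosomes) and the percent of isolated (blue) and other autosomal regions (grey) in each of 10 equal parts of the chromosome spans (right). Chromosome 10 stands highest with 37.5 and chromosome 14 lowest with 17.3; in the last part the isolated regions reach 9.58% and the others 12.6%.

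Isolated regions were shorter than the rest. The shortest was 272 bp, the median 969 bp (quartiles 729.5 and 1532.5 bp) and the longest 8974 bp, while the other autosomal regions had a median of 1348 bp (quartiles 865 and 2463 bp). Under 1000 bp were 306 members (51.4%) against 33.4% of the others. Over 5 kb were 12 members (2.02%) against 7.97%, and no member exceeded 10 kb, a length passed by 1.36% of the others. Under 600 bp were 48 members (8.07%) against 3.58%. The 6088 autosomal regions in groups of 20 or more, the least isolated of the list, had a median of 1383 bp.

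SAHA tags were fewer as well. A member held 43 to 3226 tags with a median of 139 (quartiles 95 and 271.5), and the other regions a median of 217 (quartiles 123 and 477). Per kb, members held 101.0 to 431.7 tags with a median of 143.5, which is 2.17 times the genome average, against 160.6 in the others and 165.5 in groups of 20 or more. The middle ranges overlapped widely, with quartiles of 127.6 and 177.1 in members and 136.5 and 199.1 in the others. The authors' score sets a lower limit to such densities. At the median length and a DMSO level at the genome average, 64.1 tags are the average and 101 are needed for the score of 50 at which the list ends.

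Length and density were lower at larger distances to the nearest neighbour, though not in steady order. Regions whose smaller gap was up to 1 kb had a median length of 1416 bp and 165.4 tags per kb. At 1 to 10 kb these were 1245 bp and 153.8, at 10 to 50 kb 1311 bp and 157.5, and at 50 to 100 kb 1191 bp and 151.0. Beyond the limit of 100 kb, members with a smaller gap of up to 150 kb had 944 bp and 141.8, and those of over 500 kb 854.5 bp and 137.8. The class of 150 to 250 kb broke the order, with 1142 bp and 151.4 tags per kb. Between neighbouring classes the median length fell most at the limit itself, from 1191 to 944 bp, but it rose again in the next class.

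**Figure D2:**
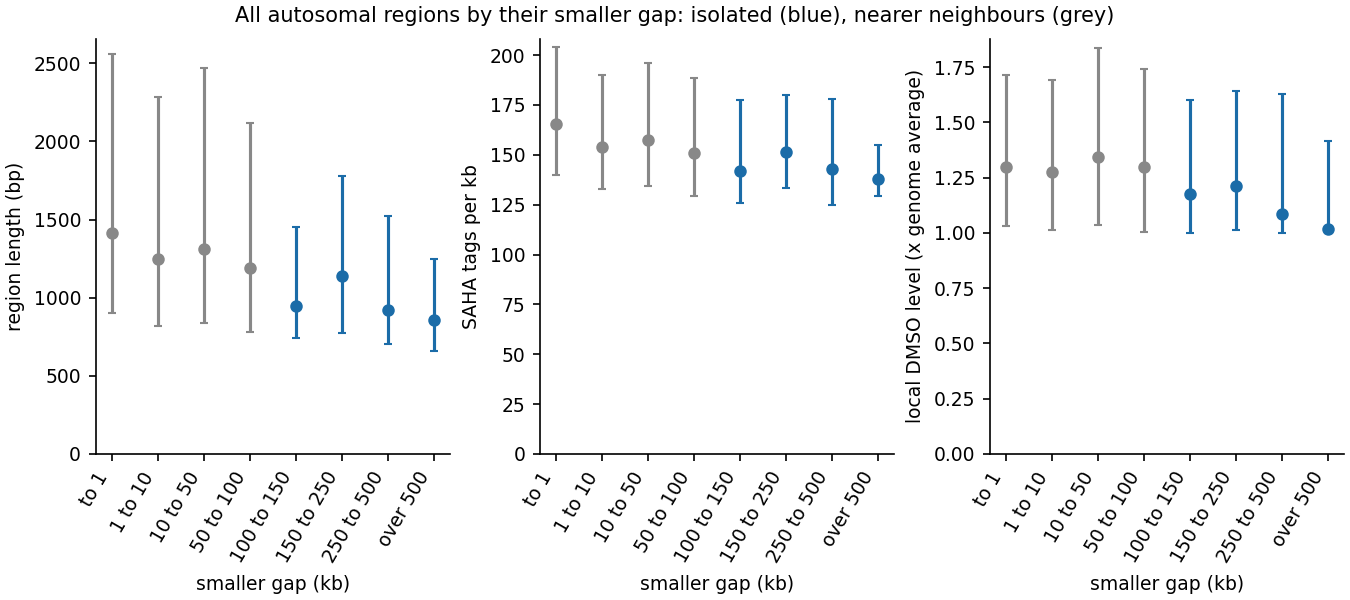
Median (points) and quartiles (bars) of region length in bp, SAHA tags per kb and local DMSO level in multiples of the genome average, for all autosomal regions by the smaller of their gaps in kb; blue classes are isolated regions, grey classes have a nearer neighbour. The median length falls from 1416 bp at gaps of up to 1 kb to 854.5 bp at over 500 kb, but is higher again at 10 to 50 kb and at 150 to 250 kb.

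The regions nearest to the limit differed in length and fold on both of its sides. Just inside it were a region of 1088 bp at chromosome 13, 118009095 to 118010182 (smaller gap 100142 bp, fold 3.79), one of 4072 bp at chromosome 11, 98915455 to 98919526 (100281 bp, fold 5.13), and one of 6542 bp at chromosome 9, 20892140 to 20898681 (100304 bp, fold 2.87). Just outside were a region of 2489 bp at chromosome 15, 12478418 to 12480906 (99973 bp, fold 3.52), one of 720 bp at chromosome 5, 139098801 to 139099520 (99950 bp, fold 5.15), and one of 1740 bp at chromosome 12, 4037938 to 4039677 (99899 bp, fold 3.13).

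At equal length, most of the difference in density was gone. Each member was set against the median of the other autosomal regions in the same of 12 length classes. The median difference was then -2.20 tags per kb, against -17.1 without regard to length, and 316 of 595 members (53.1%) were below the others of like length. From 600 to 800 bp, 154 members had a median of 128.2 tags per kb and the others 131.0. The difference was larger from 800 to 1000 bp, where 104 members had 136.2 and the others 144.0. From 1500 to 2500 bp, 91 members had 176.7 and the others 172.8. From 2500 to 5000 bp, 53 members had 199.9 and the others 207.3.

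**Figure D3:**
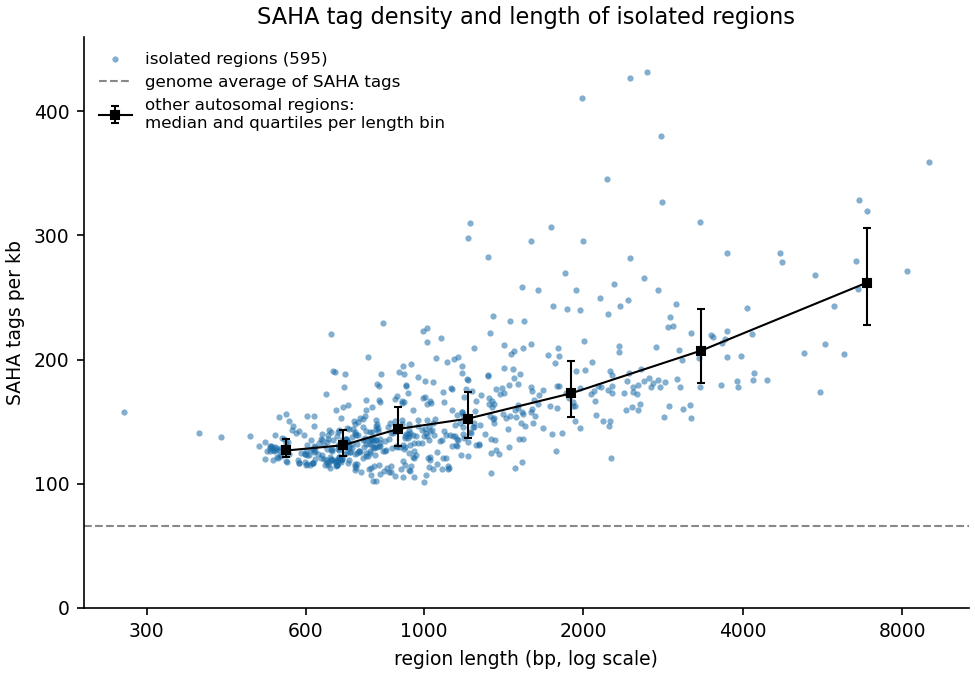
SAHA tags per kb against region length in bp (log scale) for the 595 isolated regions (blue points), with the median and quartiles of the other autosomal regions in 7 length bins (black) and the genome average of 66.1 tags per kb (dashed). The isolated regions scatter around the line of the others, between 101.0 and 431.7 tags per kb.

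The height of the summit over the DMSO background was also lower in isolated regions. Fold enrichment, score and FDR were taken as the authors deposited them, and the fold compares the SAHA summit with the local DMSO level. The members' folds ran from 2.36 to 10.36 with a median of 3.75 (quartiles 3.32 and 4.40), against 3.94 in the others and 4.18 in groups of 20 or more. A fold of at least 5 was reached by 71 members (11.9%), while the share in the whole list was 19.0%. The score, 10 times the negative log10 of the caller's p, was at least 100 in 273 members (45.9%) against a share in the whole list of 62.5%. It was under 60 in 111 members (18.7%) against 10.4% of the other autosomal regions. The deposited FDR ran from 58.25% to 100% in members, so by this column no member is a secure call. At 100% stood 17 members, or 2.86% against 11.8% of the other autosomal regions. The 5 members of highest fold had an FDR of 98.99% to 100%, at scores of 547.15 to 3100. Such an FDR thus stood at high scores, and the lower share of members at 100% does not make them safer calls.

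The difference in fold was not the same at all lengths. Over all length classes the median difference was -0.11, against -0.19 without regard to length. Under 600 bp the 48 members had a median fold of 4.05 and the others 3.75. From 2500 to 5000 bp the medians were 3.75 and 4.11, and over 5 kb, in 12 members, 3.73 and 4.63. Among other regions the median fold was higher over 5 kb than under 600 bp, and among members, with only 12 over 5 kb, it was not. A fold of at least 5 was more common over 5 kb than under 600 bp in both. The shares were 33.3% and 4.17% in members, and 41.2% and 7.78% in the others.

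The position of the summit depended on length in members and others alike. It lay in the middle part, from 1/3 to 2/3 of the region, in 64.4% of members and 55.4% of the others. At 600 to 800 bp these shares were 83.8% and 88.0%, and at 1500 to 2500 bp 49.5% and 40.5%. Within 1/10 of either end it lay in 3 members (0.504%) against 1.4% of the others.

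The local DMSO level could be recovered from tags and score in 594 members, at SAHA depth. It was the genome average in 156 of them, the DMSO tags counted in the region itself in 99, and the DMSO tags in a window of 1 kb or 10 kb in 218. In the remaining 121 it matched no background and is approximate. Where it came from the genome average or a window, the DMSO signal of the region itself was no higher, and the SAHA to DMSO ratio no lower, than given here.

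The recovered DMSO levels of isolated regions were lower than those of other regions, while at equal length they differed in both directions. The median was 1.16 times the genome average (quartiles 1.00 and 1.58, range 0.837 to 5.25), against 1.29 in the others (quartiles 1.03 and 1.72). It was at most 0.1% above the average in 186 members (31.3%), against 21.4% of the others. At equal length the median difference was 0 to 4 decimals, and 297 of 594 members were below the others of like length. The genome average is the caller's lowest background. Under 600 bp, 64.6% of members and 66.0% of the others were at most 0.1% above it. Such regions draw the median difference to 0. From 800 to 1000 bp the median level was 1.03 in members and 1.13 in the others. From 1000 to 1500 bp it was 1.32 and 1.24, from 1500 to 2500 bp 1.63 and 1.47, and from 2500 to 5000 bp 1.86 and 1.82. By the smaller gap, the share at the average was 31.3% at 100 to 150 kb (278 members), 22.6% at 150 to 250 kb (160 members), 35.4% at 250 to 500 kb (99 members) and 48.3% above that (58 members), in no steady order. It also varied by chromosome, from 14.3% of members on chromosomes 6 and 17 to 54.5% on chromosome 18, where 22 members had a median length of 740 bp.

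The number of SAHA tags divided by the DMSO level was close to that of other regions. Its median was 1.78 (quartiles 1.60 and 1.96, range 1.14 to 3.62), against 1.80 in the others (quartiles 1.59 and 2.04). A ratio of 2 or more was found in 125 members (21.0% against 28.1%), of 3 or more in 2 (0.337% against 1.06%), and one under 1.3 in 14 (2.36% against 4.79%). At equal length the median difference was -0.0361.

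Members on a low and on a high DMSO level looked different. The 186 at or below the genome average were short, with medians of 750.5 bp, 125.3 SAHA tags per kb and a ratio of 1.91. The 244 members from there up to 1.5 times the average had 949 bp, 141.1 tags per kb and 1.83. The 52 members at 2 to 3 times the average had 2242.5 bp, 221.1 tags per kb and 1.51. The 13 members above 3 times had 2801 bp, 327.2 tags per kb and a ratio of 1.32. The other regions above 3 times the average were longer, at 6140 bp, with a ratio of 1.26. The ratio is taken over the level that sorts the members here, and a longer region passes the score at a smaller ratio, so part of this order is built in.

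**Figure D4:**
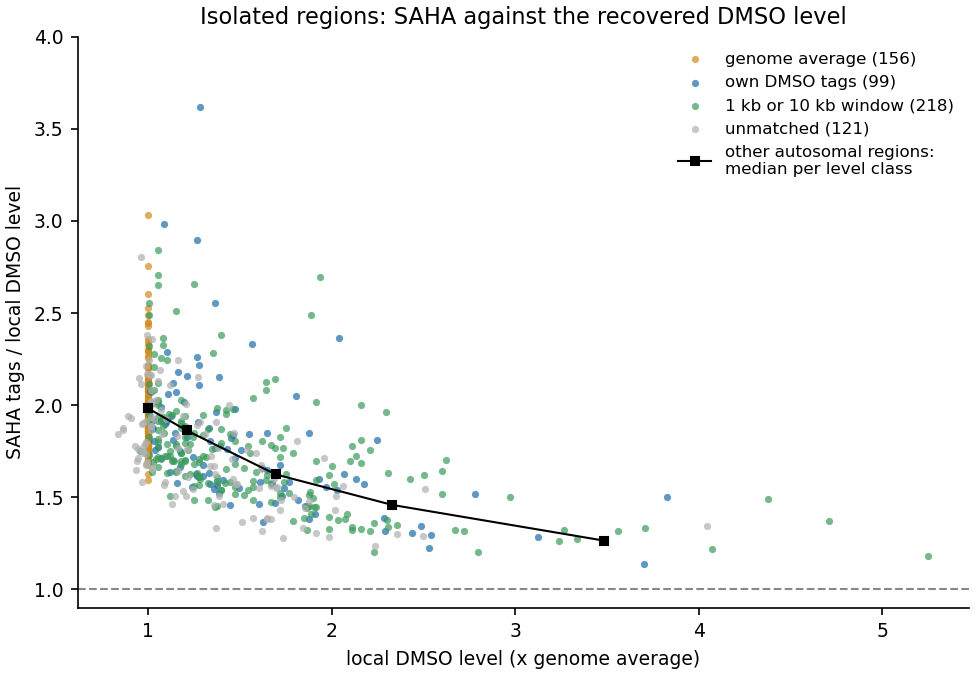
SAHA tags divided by the recovered DMSO level, against that level in multiples of the genome average for 594 isolated regions, coloured by the background that set the level, with medians of the other autosomal regions per level class (black). Points at a level of 1 reach ratios up to about 3.03, while the 13 members above 3 have a median ratio of 1.32; the dashed line marks equal SAHA and DMSO.

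For 99 members both tag counts are known, since their level was the DMSO count of the region. They held 67 to 2197 SAHA tags (median 209) and 22 to 987 DMSO tags (median 72, or 116.8 after scaling). The median ratio was 1.72 (quartiles 1.55 and 1.92), against 1.77 in the 8209 other regions of this kind. The highest, 3.62, was at chromosome 10, 85390118 to 85391856, where 534 SAHA tags stood against 91 DMSO tags (95% exact binomial interval of the scaled ratio 2.89 to 4.57). The lowest, 1.14, was the member of chromosome 9 just inside the gap limit, with 1825 SAHA and 987 DMSO tags (interval 1.05 to 1.23). These intervals do not overlap, and they cover counting error only. Both regions were chosen for this contrast after their values were seen.

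**Figure D5:**
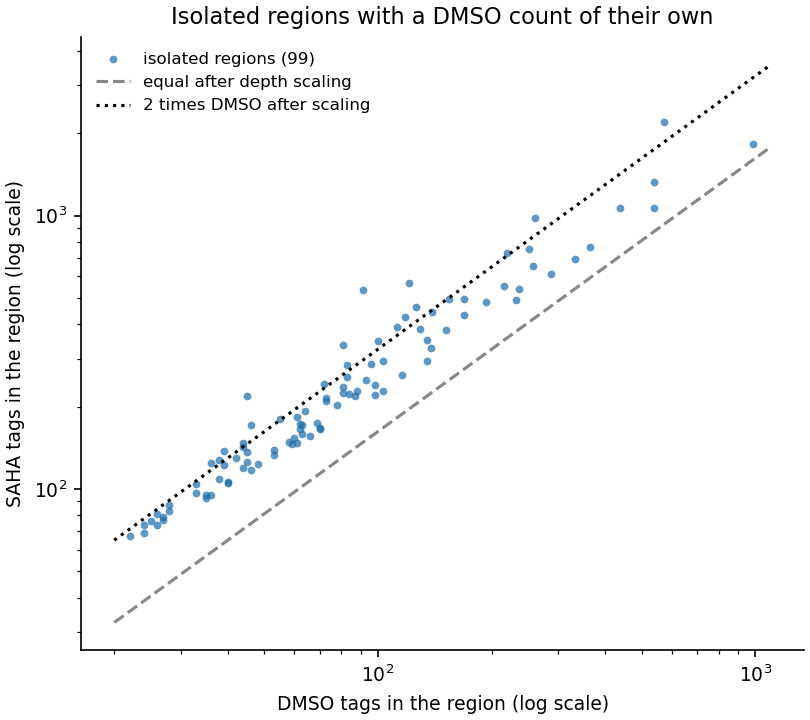
SAHA tags against DMSO tags in the 99 isolated regions whose DMSO level was their own count (both axes log scale), with lines for equal signal after depth scaling (dashed) and for 2 times DMSO (dotted). All points lie above the dashed line, as a region must to be called at all, from a ratio of 1.14 to 3.62.

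The 5 members of highest fold were unlike the typical member in length. The first was that region of chromosome 10, 1739 bp long with a fold of 10.36, the only member at 10 or more, and with a gap of 404.3 kb before and 134.6 kb after it. The second, at chromosome 14, 25326156 to 25332114, held 1450 SAHA tags over 5959 bp with a fold of 9.11, and its score of 3100 is at the ceiling of the caller, so no DMSO level was recovered. The third, at chromosome 2, 129422177 to 129431150, was the longest member and had the most tags, 3226, with a fold of 8.20. Its level was about 4.05 times the genome average and its whole-region ratio about 1.34, so this high summit stood in a stretch with a high local DMSO level. At chromosome 4, 108018345 to 108025224, 2197 SAHA tags stood against 572 DMSO tags over 6880 bp, a ratio of 2.37 (interval 2.16 to 2.60) at a fold of 7.46. The last of the 5, at chromosome 5, 96649774 to 96651847, had a fold of 7.40 and 357 SAHA tags on a level at the genome average, a ratio of at least 2.60 (interval 2.34 to 2.89, from the SAHA tags alone). It bordered on a stretch of 2.96 Mb with no listed region.

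The members of highest density also had high local DMSO levels. At chromosome 2, 27643304 to 27645946, there were 431.7 SAHA tags per kb over a level of 4.38 times the genome average, where the fold was 3.11 and the ratio 1.49 or more. At chromosome 6, 29865842 to 29868297, 427.1 tags per kb stood over 4.71 times the average. At chromosome 1, 37596841 to 37598831, it was 410.3 over 5.25 times, the highest level of any member, with a ratio of at least 1.18 and a score of 58.13. At chromosome 14, 55494057 to 55496857, 1064 SAHA tags stood against 437 DMSO tags, a ratio of 1.5 (interval 1.34 to 1.68). The longest member came next, with 359.5 tags per kb. The ratio recovered for each of these 5 was under 1.60, the lower quartile of the members. On chromosome 14 it came from the region's own DMSO count. For the longest member it is approximate, and for the others it is a lower bound from a window of 1 kb or 10 kb. Density is the product of level and ratio, so high levels among the densest members are in part built in.

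The longest members had high local DMSO levels as well, as did other regions of such length. Over 5 kb the median level was 2.50 times the genome average in members and 2.58 in the others. The member of 6880 bp on chromosome 4 had a level of 2.04. Besides the regions of 8974 bp on chromosome 2 and 6880 bp on chromosome 4 named above, the 5 longest included 8187 bp at chromosome 2, 24306426 to 24314612 (level 3.24, ratio at least 1.26), 6645 bp at chromosome 2, 174266402 to 174273046 (level 4.07, ratio at least 1.22), and 6614 bp at chromosome 19, 22373838 to 22380451 (level 2.43, ratio at least 1.60). The first of these 3 bordered on a stretch of 1.41 Mb with no listed region. The first pair held 2218 and 2185 tags, and the member of chromosome 9 with 1825 tags was also among the 5 with the most tags.

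The 5 most isolated members held from 85 to 806 SAHA tags, 2 of them under the members' median of 139 and 3 above it. At chromosome 7, 13631611 to 13632280, a region of 670 bp held 85 SAHA tags at a fold of 3.11 with nothing listed for 7.49 Mb before and 2.87 Mb after it. Its level was the genome average and its ratio at least 1.92 (interval 1.53 to 2.37). At chromosome 16, 70354595 to 70355291, 697 bp held 91 tags at a fold of 4.18, with gaps of 3.28 and 2.64 Mb. On chromosome 4, regions at 24777588 to 24778639 (160 tags) and 29021552 to 29022775 (173 tags) faced each other across 4.24 Mb. The latter held 62 DMSO tags, a ratio of 1.72 (interval 1.28 to 2.34). The longest of the 5 was a region of 3971 bp at chromosome 18, 20868450 to 20872420, with 806 tags, a level of about 2.36 times the genome average and a ratio of about 1.3, between gaps of 3.89 and 2.78 Mb.

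The faintest members by score were just above the cutoff of 50. They were at chromosome 10, 81326022 to 81326293 (272 bp, 43 tags, score 50.09), chromosome 19, 12488168 to 12488971 (804 bp, 82 tags, 50.12), chromosome 4, 154009577 to 154010298 (722 bp, 86 tags, 50.20), chromosome 5, 42142310 to 42143393 (1084 bp, 121 tags, 50.24) and chromosome 17, 64907608 to 64908108 (501 bp, 60 tags, 50.35). The first was the shortest member and had the fewest tags. Their folds, 2.38 to 4.29, were within the range of the other members.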

How the data were processed

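ChIP-seq libraries, 1 of DMSO and 1 of SAHA, were compared through the 1 deposited list of regions. The submitters' processing notes name CASAVA 1.7.0, the aligner BWA 0.5.9, SAMtools, the caller MACS 1.4.0rc2 and build mm9. Per the file headers, MACS took SAHA as ChIP and DMSO as control, with a p cutoff of 1e-05, at most 3 duplicate tags per position, a fragment size of 141 bp, an effective genome size of 1.87e+09 bp, local backgrounds of 1 kb and 10 kb and the smaller library scaled to the larger. Tags are deposited as raw counts of the SAHA library. The score column holds the negative log10 of the p-value times 10, the fold column a ratio to the local DMSO background, and the FDR column a percentage, all as deposited. Positions, lengths and summits are other deposited values in bp.

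Gaps were taken from the end of a region to the start of the next. Members and measures were chosen with earlier results of these data known. The DMSO level of a region was found by solving the upper Poisson tail beyond its tag count for the deposited p, for scores under 3000, and matched to possible backgrounds within the rounding of 0.005. As a check, the summit height implied by fold and level was a whole number, to 0.1 tags, for 97.3% of the 473 matched members. Of the 121 unmatched members, 29 came out more than 0.1% under the genome average, below the lowest background of the caller. Level recovery and gap rule were tested on simulated data. Regions named in the text are the 5 members of highest fold, density, length, isolation and tags, the 5 of lowest score and the 3 on either side of the gap limit; others are said to be chosen after their values were seen. Python 3.11.15, numpy 2.4.6, scipy 1.17.1, pandas 2.3.3 and matplotlib 3.10.9 were used. No genome or annotation of build mm9 was used here, so genes and sequences at these positions were not analysed.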

Additional observations from a re-analysis of the deposited data

How the results depend on the processing

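The number of isolated regions follows the gap limit: 1566 at 50 kb and 207 at 200 kb. Which regions are isolated also follows the list in which gaps are measured. Among regions with a fold of at least 5, 1265 were isolated, and 71 of these were members. Among regions with a score of at least 100, 768 were isolated, and 273 of these were members. The 71 and 273 are all members that pass each limit, since leaving out regions can only widen a gap. At 50 kb the median length was 1088 bp, with 163.5 tags and 148.3 tags per kb, and 27.1% were at the genome average of DMSO. At 200 kb the median fold was 3.68 and the share at the average 35.4%. Among the 273 members with a score of at least 100 the medians were 1450 bp, 242 tags, 167.4 tags per kb, a fold of 4.16 and a score of 163.1, and 23.4% had a fold of at least 5; stricter limits raise these by construction. Within length classes the differences from other regions were -2.20 tags per kb, 0 in DMSO level and -0.0361 in ratio, against -17.1, -0.137 and -0.0152 without them. With no depth scaling the median ratio was 2.90. The comparisons within length classes other than of tags per kb, and those of the share at the average, were added after the data were seen, as was leaving out the members beside a gap over 1 Mb, which left 434 members and moved no median beyond its interval. The position relative to genes was not run. No paired analysis was possible because each condition had 1 library.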
